A study of Solanum lycopersicum with 4 samples.

Results

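The genes described here had few or no reads in vegetative tomato shoot apices and more in both libraries of apices at floral transition. They were chosen by their measured values: at most 10 normalised counts in each of the 2 vegetative libraries and at least 20 in each of the 2 transitional libraries. The deposited table lists 34722 genes, and 81 met these limits. The choice left out 6 identifiers by name, 4 of which met the limits, so that 77 members remain. Because all 4 libraries were used to choose them, the difference between the stages is given for the members as a description and not as a finding.

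The libraries came from wild-type tomato (Solanum lycopersicum), and no mutant or treated group enters here. Greenhouse seedlings aged 2 to 12 days were placed in acetone before the shoot apical meristems were cut out. The vegetative group (replicates C and D) had already made 6 leaves and the transitional group (replicates A and B) is labelled as transitional meristem. The labels do not give plant numbers or tie replicates to separate plants, so p-values here reflect only how these samples varied, and that variation may be technical.

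The shoot apical meristem is the small group of stem cells and their dividing offspring at the top of the stem. In tomato it makes a set of leaves and then ends its vegetative life by becoming the first inflorescence, while growth goes on from a meristem in the axil of the last leaf. During this floral transition the dome enlarges, and genes that give floral meristem identity, many of them transcription factors, are turned on in a tissue that had little of their RNA before. In a dissected apex a gene can appear because cells make more of its RNA or because the sample holds more cells of a kind that makes it, and bulk libraries cannot tell these apart.

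The files do not pair identifiers with gene names, and the RefSeq gene table for tomato held 0 of the 34722, so members are given by identifier with no name or role. For the same reason the meristem identity of the samples was not checked against marker genes. The digits after "Solyc" give the chromosome, and the number after "g" increases along it, mostly in steps of 10. Libraries held 16141074 (vegetative C), 23043526 (vegetative D), 21977345 (transitional A) and 22094423 (transitional B) reads in genes. A normalised count is a read count divided by the library's size factor. The limit of 10 therefore stood for 7.25 reads in vegetative C and 10.2 in D, and the limit of 20 for 19.7 and 19.8 reads in transitional A and B. A count of 0 allows up to 0.186 CPM in C and 0.130 CPM in D (3 reads of the library, counting error only).

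Few genes made this step. At most 10 normalised counts in both vegetative libraries were found for 16057 genes. All 4 libraries lacked reads for 10701 of these, and 0.504% of the 16057 reached 20 in both transitional libraries. Under the same limits in the opposite direction, 15 of 15595 genes with at most 10 in both transitional libraries stood at 20 or more in both vegetative ones. The members together took 0.0390% of the reads of transitional A and 0.0240% of those of transitional B.

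Most members were low rather than absent before the transition. Only 6 of the 77 had no read in either vegetative library. Reads were present in vegetative C alone for 6 members, in D alone for 9 and in both for 56. A member's vegetative reads over both libraries had a median of 6 and reached 17 at most. Neither vegetative library was the higher one as a rule, with 34 members higher in C, 37 higher in D and 6 equal. The label "switched on" thus holds in the strict sense of no vegetative read for 6 members. The other 71 were low but present before the transition, and 54 of them had at least 4 vegetative reads. Their rise in level, given below as a ratio, was as small as 2.86-fold.

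The levels reached were modest. The mean of the 2 transitional values had a median of 46.1 normalised counts over the members, with quartiles of 30.4 and 71.4, against a median of 411 over the 19607 genes that averaged 5 or more normalised counts across the 4 libraries. Between 20 and 50 lay 44 members, between 50 and 100 lay 23, and 10 reached 100 or more, the highest 2 at 623 and 1349. Normalised counts are not divided by gene length, so this order mixes RNA abundance with transcript length. The 2 highest members held 28.1% of all transitional reads of the group and the 8 highest held 52.7%.

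**Figure D1:**
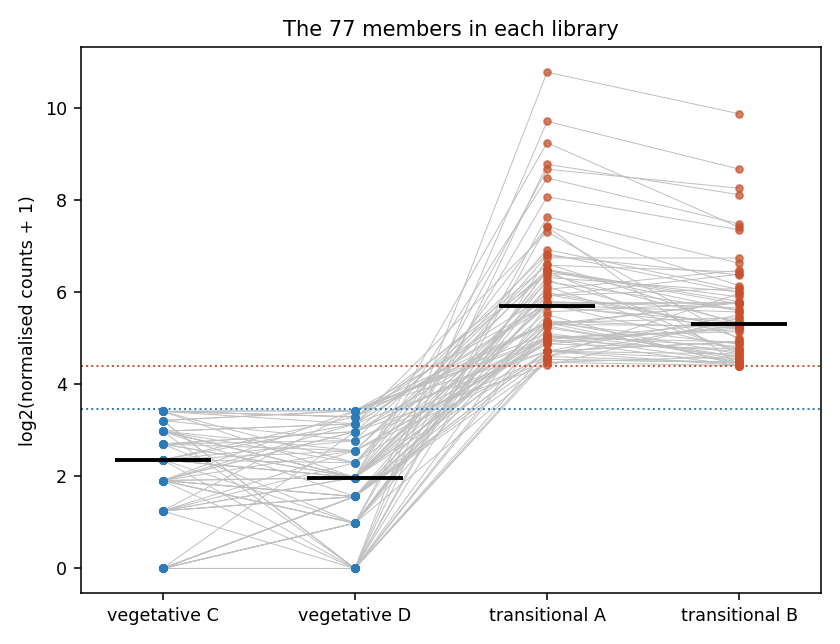
Each point is 1 of the 77 members in 1 library, as log2(normalised counts + 1), with grey lines joining a member's values, black bars at the medians, and dotted lines at the limits of 10 (blue) and 20 (orange) that chose the members. The medians are 4.14 and 2.93 normalised counts in vegetative C and D and 50.7 and 38.4 in transitional A and B, and a few members stand far above the rest.

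Solyc01g067540.1 had the highest normalised counts, at 1759 in transitional A and 939 in B, after 6.90 and 0 in vegetative C and D. Solyc08g006860.2 had no vegetative read and stood at 838 and 408. Both were about as far apart between the transitional replicates, 1.87-fold and 2.06-fold, with A the higher. Solyc12g096790.1 reached 607 in A and 169 in B from 9.66 in C and 2.93 in D. Its transitional replicates were 3.59-fold apart, the widest gap among the 8 highest members.

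Solyc01g080960.2 reached 439 in A and 277 in B from 4.14 in C and 0 in D. Solyc02g081370.2 went from 5.52 and 0.978 to 407 and 306, the closest agreement between transitional replicates among the 8 highest (1.33-fold). For both, 5 or fewer vegetative reads set the baseline. Solyc06g083470.2 went from 1.38 and 2.93 to 357 and 178, and Solyc06g062370.2 from 4.14 and 0.978 to 269 and 163. Solyc01g091420.1 had no vegetative read and stood at 199 and 98.1. In all 8 of these genes both transitional values lay above both vegetative values, as the choice of members requires, and transitional A was the higher replicate.

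The remaining members without a vegetative read covered a wide range. Solyc12g019230.1 stood at 172 and 69.8 in transitional A and B, Solyc01g111900.2 at 39.5 and 21.2, and Solyc02g080790.2 at 25.3 and 29.3. Solyc12g006680.1 was the reverse of the highest members, at 23.3 in A and 61.7 in B. Taking 3 reads in the 2 vegetative libraries together as the floor, the transitional level of the 6 members without a vegetative read was at least 15.9-fold higher (Solyc02g080790.2) to at least 363-fold higher (Solyc08g006860.2).

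For the 71 members with a vegetative read, a stage's level was summed reads over summed size factors, not the mean normalised count. The ratio of transitional to vegetative level had, over these members, a median of 12.8 and ran from 2.86 to 471. It was at least 4 for 66 of them and at least 16 for 30. Few vegetative reads make the larger ratios imprecise. For Solyc01g067540.1 the ratio of 471 rests on 5 vegetative reads and has an exact 95% counting interval of 202 to 1453. Solyc05g054470.2, named after its values were seen, stood at 1.38 and 0 and then at 106 in both transitional libraries, and its ratio of 186 rests on 1 vegetative read, with an interval of 33.0 to 7372. The interval began at 2 or more for 68 of the 71, and its lowest lower bound was 1.64. The limits that chose the members fix each ratio at 2 or more in advance. The intervals rest on the same reads that chose the members, so they do not test the rise. These intervals cover counting error only and not the spread between replicates.

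**Figure D2:**
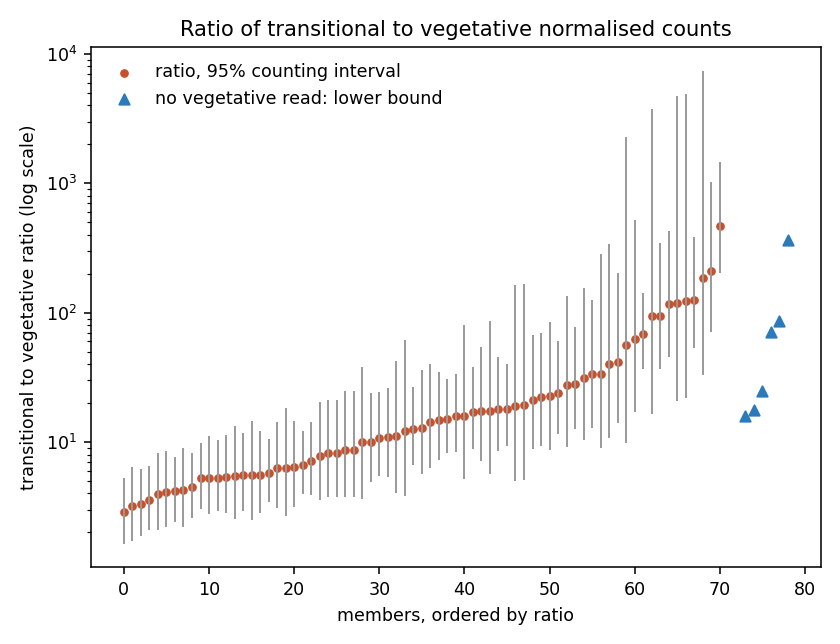
Orange points give the ratio of transitional to vegetative level (log scale) for the 71 members with a vegetative read, in increasing order. A level is summed reads over summed size factors, and grey bars give the exact 95% counting interval. Blue triangles give the lower bound for the 6 members with no vegetative read, and the bars widen towards the high ratios, where few vegetative reads remain.

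The same contrast was fitted over all genes with limma on log2(normalised counts + 1), which places the members' changes beside the spread between replicates. All 77 members passed the filter on low values, and 59 were called higher at a Benjamini-Hochberg adjusted p under 0.05, beside 2.70% of the 19607 genes tested. Since the members were chosen on this contrast, nothing is read from that count. The median log2 change over the members was 3.50, against 0.01 over all genes tested. The 18 members that were not called were mainly low, with 15 of them under 50 normalised counts, and the highest was Solyc07g064600.2, whose transitional replicates stood far apart. With vegetative C or D left out, limma no longer called any gene, member or not. With transitional A left out 57 members were called, beside 5.04% of all genes tested, and with B left out 56, beside 4.57%.

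The limits cut through a continuous range of values. Just inside the vegetative limit, Solyc01g005060.2 had 9.66 in C, 9.78 in D, 25.3 in A and 44.5 in B. Solyc01g096420.2 (8.28, 9.78, 31.4 and 29.3 in C, D, A and B) and Solyc03g114360.2 (2.76, 9.78, 33.4 and 23.3) lay as close to it. Just outside, Solyc11g064750.1 stood at 4.14, 10.8, 20.3 and 25.3, while Solyc01g091470.2 (11.04, 2.93, 84.1 and 57.7) and Solyc01g107910.2 (11.04, 2.93, 47.6 and 34.4) missed the limit by 1 read in C. Solyc01g091470.2 and Solyc01g107910.2 were as high in transitional meristems as many members, while Solyc11g064750.1 lay near the transitional limit.

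Just inside the transitional limit were Solyc06g007230.1 (0, 0.978, 44.6 and 20.2 in C, D, A and B), Solyc06g076130.2 (2.76, 1.96, 25.3 and 20.2) and Solyc07g064600.2 (4.14, 2.93, 171 and 20.2). Just outside were Solyc01g065570.2 (9.66, 9.78, 19.3 and 22.3), Solyc06g075480.2 (8.28, 5.87, 19.3 and 20.2) and Solyc01g010230.2 (2.76, 2.93, 28.4 and 19.2). In each of these 6 genes 1 read more or less in a single transitional library could move it across the limit.

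The transitional replicates were not alike in these genes. Transitional A was higher than B for 57 of the 77 members (74.0%) and lower for 20, with a median log2 ratio of A to B of 0.32. For comparison, A was higher in 53.4% of 13050 other tested genes that had at least 20 normalised counts in both transitional libraries and a mean no higher than the top member's, where the median log2 ratio was 0.02. The 470 other genes called higher at the transition leaned the same way, with 331 (70.4%) higher in A and a median log2 ratio of 0.15. With 1 library on each side the difference between these sets was not tested.

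The lean towards A was widest in the highest members. All 10 members with a transitional mean of at least 100 stood higher in A, with a median log2 ratio of 0.95. Among the 33 members at 50 or more, 28 stood higher in A with a median log2 ratio of 0.72, and among the 44 below 50, 29 did, with a median of 0.12. Equal reads in A and B were found for Solyc05g054470.2 (105 in each) and Solyc01g090610.2 (53 in each). Both count as higher in A, here and above, through the size factors alone. The non-members of the same range had median log2 ratios of 0.02 at 100 or more, 0.02 at 50 or more and 0.0026 below 50. The limit of 20 in both libraries keeps out genes that were high in 1 replicate alone, so it narrows the ratios that low members can show.

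An exact binomial test of the reads, which compares these 2 libraries and not a condition, asked whether A and B differed by more than read counting gives. It called 26 of the 77 members (24 higher in A and 2 higher in B; two-sided, adjusted over all genes tested), beside 29.6% of the 19607 genes tested. Read at matched levels, it called 9 of the 10 members at 100 or more, against 27.0% of the non-members. Between 50 and 100 it called 11 of 23 members, against 14.6%, and between 20 and 50 it called 6 of 44, against 5.99%. More than 2-fold apart were 16 members (20.8%), 14 of them higher in A, and 1.70% of the 13050 non-members. These shares were not matched for level. Under 50 normalised counts lay 44 of the 77 members but only 1203 of the 13050 non-members, and counting error is wider at low levels.

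The widest gap was in Solyc07g064600.2, at 171 in transitional A and 20.2 in B (8.47-fold, adjusted p = 4.9e-29 by the exact binomial test on reads), with 4.14 and 2.93 in vegetative C and D. Transitional B thus lay closer to the vegetative libraries than to A in this gene. Solyc03g080180.2 stood at 158 in A and 30.4 in B (5.21-fold) and at 4.14 and 7.83 in C and D. Solyc12g096790.1, described above, came next at 3.59-fold. In the other direction, Solyc12g006680.1 was 2.65-fold higher in B. Solyc01g099620.2 stood at 20.3 in A and 42.5 in B (2.10-fold higher in B), with 0 and 6.85 in C and D. Solyc01g005060.2 was 1.76-fold higher in B, a gap that the read test did not call. Solyc05g054470.2 was the 1 member at 100 or more whose replicates were not called different, at 106.4 and 106.2.

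**Figure D3:**
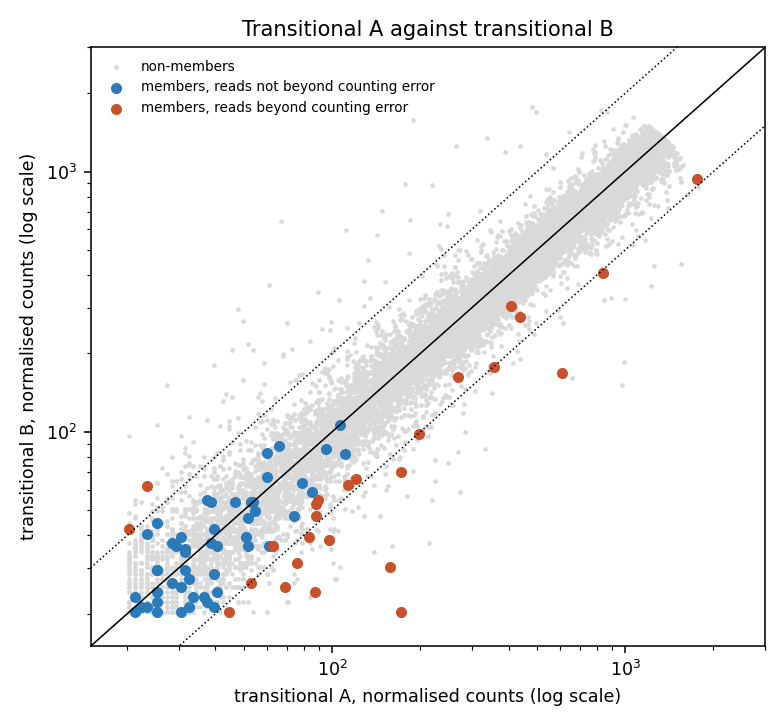
Each large point is a member, by its normalised counts in transitional A (horizontal) and B (vertical), both on log scales. Orange points are the 26 members whose reads differed beyond counting error by the exact binomial test, blue points the others, and grey points non-members in the same range. The solid line marks equal values and the dotted lines 2-fold, and the members at 100 or more lie on or below the line of equality.

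Members were found on all 12 chromosomes and among the unplaced identifiers. Chromosomes 1, 2, 6 and 7 held 11 each, or 14.3% of the members apiece, where these chromosomes hold 12.9%, 10.97%, 8.91% and 7.36% of the genes tested. Chromosome 3 held 8, chromosomes 8 and 12 held 5 each, and chromosomes 4 and 5 held 4 each. Chromosomes 9 and 11 held 2 each and chromosome 10 held 1, where these hold 7.14%, 6.69% and 6.50% of the genes tested. In proportion to tested genes, members made up, among the numbered chromosomes, between 0.0784% of the tested genes of chromosome 10 and 0.762% of those of chromosome 7. The other 2 members carried identifiers of chromosome 0, the unplaced sequence, which holds 0.632% of the genes tested. Such counts are small, and no test of the spread was made.

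**Figure D4:**
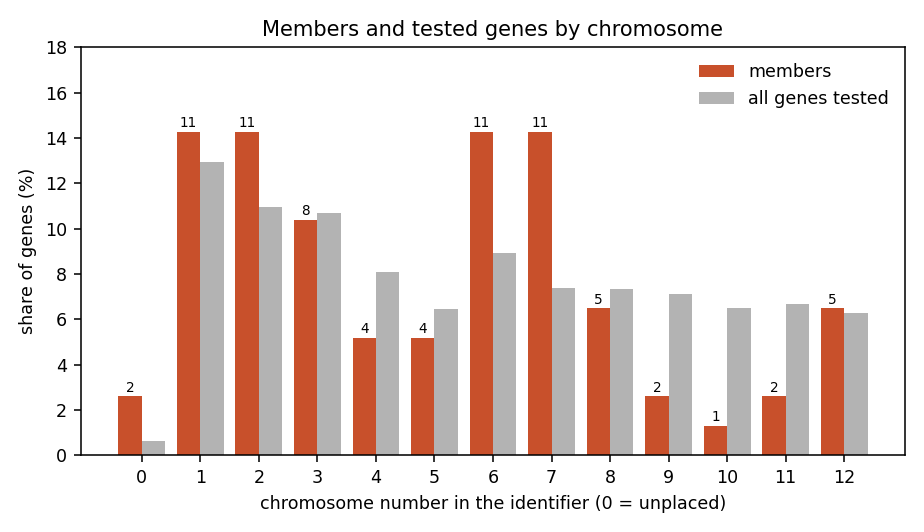
Bars give the share of the 77 members (orange, with the number of members above each bar) and of the 19607 genes tested (grey) by the chromosome number in the identifier. Members exceed the share of tested genes most on chromosomes 6 and 7 and fall short of it most on chromosomes 9 to 11.

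The version digit at the end of the identifier was 2 for 51 members (66.2%), close to the 66.6% of the genes tested. Among all genes at 10 or less in both vegetative libraries it was 2 for 19.0%.

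Tandem neighbours were sought as consecutive identifiers. Of the 77 members, 6 stood next to another member (7.79%), in 3 pairs, where 0.441% of all identifiers and 0.505% of the genes tested did. No run of 3 occurred. The 529 genes called higher at the transition include 59 members, the 6 paired ones among them, so the next count is not independent. Of the 529, 74 (13.99%) stood next to another such gene, where 3.60% of all tested genes had one beside them. Consecutive identifiers do not by themselves show that genes are duplicates of each other, and no sequence was compared. How reads in overlapping or near-identical genes were counted is not stated in the labels or the file, so reads shared between such neighbours cannot be told apart from separate expression.

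On chromosome 2, Solyc02g069420.2 went from 2.76 and 2.93 normalised counts (C and D) to 62.8 and 36.4 (A and B). Its neighbour Solyc02g069430.2 went from 0 and 0.978 to 76.0 and 31.4. Both were higher in A, by 1.73-fold and 2.42-fold. On one side of the pair, Solyc02g069410.2 was already expressed, at 204 and 198 before and 244 and 240 after, and was not called. On the other side Solyc02g069440.2 was without reads.

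The second pair on chromosome 2 differed more within itself. Solyc02g081360.2 went from 2.76 and 7.83 to 95.3 and 86.0, while Solyc02g081370.2, one of the 8 highest members, reached 407 and 306. Their ratios of transitional to vegetative level were 15.8 (exact 95% counting interval 8.41 to 33.6) and 125 (53.1 to 385). The identifier before the pair, Solyc02g081350.2, stood at 0, 2.93, 10.1 and 7.08 in C, D, A and B and was not called. Solyc02g081380.2 behind it was abundant throughout, at 1195, 1182, 1192 and 1262.

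On chromosome 3, Solyc03g098710.1 went from 4.14 and 4.89 to 97.3 and 38.4, and Solyc03g098720.2 from 0 and 0.978 to 88.2 and 52.6. Both were again higher in A, by 2.53-fold and 1.68-fold. The identifiers on either side, Solyc03g098700.1 (0, 0.978, 2.03 and 0) and Solyc03g098730.1 (23.5, 25.4, 19.3 and 41.5), did not share the step.

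Widening the window to 5 identifiers added 2 pairs, both described after their values were seen. Solyc01g080990.2, at 9.66 and 8.80 and then 39.5 and 42.5, lay 3 identifiers from Solyc01g080960.2, with the identifiers between them without a read. On chromosome 7, Solyc07g054770.1 (5.52 and 6.85, then 31.4 and 35.4) and Solyc07g054790.1 (2.76 and 0, then 22.3 and 21.2) enclosed Solyc07g054780.1. That enclosed gene was no member because it was already read in vegetative apices, at 41.4 and 33.3, and stood at 238 and 320 in A and B. Solyc07g054760.1, before them, stood at 26.2 and 32.3 and then at 69.9 and 71.8. The 2 members of this group stood 1.13-fold and 1.05-fold apart between the transitional replicates. Of these members, Solyc07g054770.1 was called higher and Solyc07g054790.1 was not (limma adjusted p = 0.0508).

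**Figure D5:**
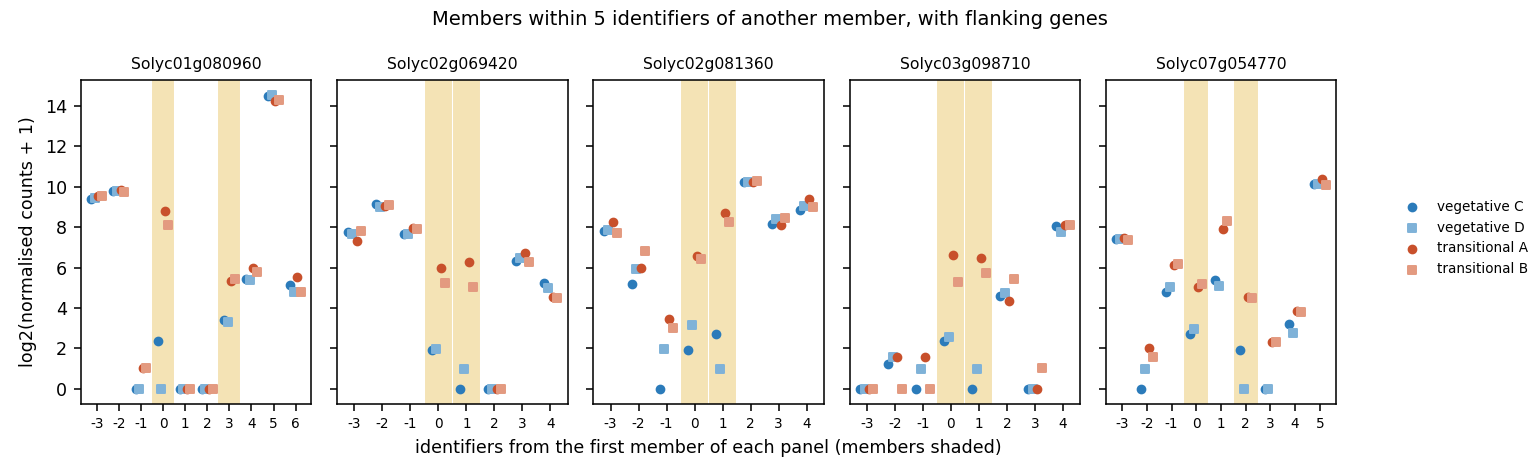
Each panel shows members (shaded) within 5 identifiers of another member and the 3 identifiers on either side, by position in identifiers from the first member named above the panel. Points give log2(normalised counts + 1) in vegetative C and D (blue) and transitional A and B (orange). The members step up, though limma did not call the member Solyc07g054790. Of the flanking genes it called higher only Solyc07g054760 and Solyc07g054780, in the panel of Solyc07g054770.

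The genes next to members were not chosen by their values, except that they failed the limits, and can be tested. Of 147 such neighbours 93 were tested by limma and 10 were called higher (10.8%), none lower, beside 2.70% of all genes tested. The median log2 change over the 93 was 0.10, against 0.01 over all genes tested, and 24 of the 93 were higher at an unadjusted p under 0.05, beside 9.79% of all genes tested. With vegetative C or D left out, no neighbour and no other gene was called, while some neighbours were still called with transitional A or B left out. When every gene with a read was tested, with no filter on low values, limma called 0 of 119 neighbours and 6 genes (0.0250%) in all. For the other 470 genes called higher, 55 of 621 tested neighbours that were no members were called higher (8.86%). Genes lacking reads in all 4 libraries made up 19.0% of the neighbours and 30.8% of the whole table.

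The neighbours called higher with the smallest adjusted p had reads in both vegetative libraries. Those named here lay above the transitional limit in A and B. As non-members they therefore had to exceed the vegetative limit in C or D, so their vegetative reads are not a separate observation. Solyc02g084790.2, next to Solyc02g084780.2, went from 172 and 187 normalised counts (C and D) to 642 and 588 (A and B), with a log2 change of 1.77, an SE of 0.12 and a limma adjusted p of 0.00114. The member beside it stood at 6.90 and 4.89 and then at 85.1 and 58.7. Solyc07g054780.1, enclosed by members, followed (log2 change 2.86, SE 0.22, limma adjusted p = 0.00186).

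Solyc02g080210.2 stood at 13.8 and 19.6 and then at 216 and 137 (log2 change 3.31, SE 0.31, limma adjusted p = 0.00335). The member beside it, Solyc02g080200.2, went from 0 and 0.978 to 88.2 and 47.5. Solyc12g096780.1 stood at 185 and 139 and then at 1399 and 724 (log2 change 2.64, SE 0.29, limma adjusted p = 0.00544), with higher normalised counts in every library than its neighbour Solyc12g096790.1 and likewise higher in A. Solyc01g096410.2, beside Solyc01g096420.2, stood at 218 and 258 and then at 618 and 451 (log2 change 1.15, SE 0.17, limma adjusted p = 0.0146).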

How the data were processed

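RNA sequencing of total RNA from dissected meristems gave 4 libraries, 2 per stage. For each gene the authors deposited 1 normalised signal value per library, a read count scaled by the library. DESeq2 1.6.3, HTSeq 0.6.1p1 and TopHat2 2.0.10 are listed, without their roles, in the submitters' processing notes. Genome build and annotation were not given in the sources used here. All deposited values (100% per library, relative tolerance 1e-06) were whole multiples of the library's smallest value above 0, which gave back the reads and the size factors: 0.725 (vegetative C), 1.02 (vegetative D), 0.987 (transitional A) and 0.988 (transitional B).

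Members and tests were chosen with earlier results of these data known. The design named limma for normalised values, so limma 3.58.1 (trend, R 4.3.3) was fitted on log2(signal + 1) where a gene's mean was 5 or more. As an alternative, edgeR 4.0.16 applied to those reads called 485 genes higher. Transitional A and B were compared by exact binomial tests of reads given the library totals (SciPy 1.17.1). Both tests were tested on simulated data.

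Named members were the 8 with the highest transitional mean, the others without a vegetative read, the 3 largest and 3 smallest ratios of A to B, those next to another member and those nearest the limits. Neighbours were named if called, up to 5 by adjusted p. The vegetative replicates are C and D in their titles and A and B in their descriptions. Title letters are used. No letter is shared between groups, so no pairing was used.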

Additional observations from a re-analysis of the deposited data

How the results depend on the processing

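The number of members follows the limits. A vegetative limit of 5 gave 39 genes and one of 20 gave 203, while a transitional limit of 10 gave 260 and one of 50 gave 23. Library size scaling and DESeq2 size factors each gave 65 members, with the largest count on 1 chromosome then 11, on chromosome 2. Choosing members without 1 library gave 109 to 157 genes, 6 to 10 of them next to another, and 9 to 18 without a read in the vegetative libraries used. Counting neighbours within 5 identifiers gave 10 members near another.

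Of the 77 members limma called 59. It called 1 of the 77 when every gene with a read was tested (24021 genes, 6 called higher in all), and 0 to 57 when 1 library was left out. The count of called neighbours, 10, was 0 without the filter, with 27 higher at an unadjusted p under 0.05, and 0 to 13 without 1 library. DESeq2 1.42.0 called 55 members and 10 neighbours higher, beside 3.01% of all genes tested, and edgeR 58 and 8, beside 2.47%. A lone library left in a group was assumed to vary like the other group. Asking also for a 2-fold gap, 16 members differed between transitional A and B beyond counting, beside 2.45% of the genes tested. The genes tested were not matched to the members for level. Over the 23 members at 50 or more in both, the median log2 ratio of A to B was 0.66. Of 56 alternatives 36 changed a result by no more than 1.5 times or its error, among them all other scalings and pseudocounts. Depth limits the vegetative baseline of the 17 members that rest on 1 to 3 vegetative reads.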

Other observations

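More genes crossed the limits in transitional A alone than in B alone. Of the 16057 genes with at most 10 normalised counts in both vegetative libraries, 80 reached 20 in A alone and 32 in B alone. The same count over all genes was not made, so no background stands beside these numbers. In the other transitional library 42 of the 80 and 21 of the 32 stood at 10 or more. The highest values, picked after they were seen, were those of Solyc07g041720.1, at 339 normalised counts in A and 1.01 in B, and Solyc07g040960.1, at 4.05 in A and 473 in B. Both had at most 2.76 in either vegetative library. Of the genes that reached 20 in 1 transitional library, 6 exceeded 100 in A and 1 in B. No test was made on genes selected in this way.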
